A study of Mus musculus with 2 samples.

Results

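Arg1-negative C1q macrophages of lungs with melanoma metastases are described here from single-cell RNA sequencing. They were chosen from raw counts per cell barcode. A barcode was kept in the count with at least 500 UMIs (unique molecular identifiers, each marking 1 captured RNA molecule) and under 20% of UMIs from mitochondrial genes. It was a member with at least 5 UMIs of C1qa, C1qb and C1qc together and no UMI of Arg1. It also needed at most 1 UMI of the alveolar macrophage genes Plet1, Car4 and Krt79, under 2 UMIs of the T cell genes Cd3d, Cd3e, Cd3g and Trac, no UMI of the B cell gene Cd79a and under 20 UMIs of the melanoma genes Pmel and Dct. Of 20364 kept barcodes, 177 were members. The C1q and Arg1 values that chose them are given as a description and support nothing.

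Live CD45-positive cells, which are white blood cells, had been sorted from C57 mouse lungs with metastases. The tumours came from the melanoma line B16F10. The tumour cells carried wild-type IRF7 (the WT tumour library) or IRF7 with the change C435A (the C435A tumour library). IRF7 is a transcription factor that drives type I interferon production, and the genotype is that of the tumour cells, not of the macrophages. Each group is 1 library; the sources used here do not give the number, age or sex of the animals. The difference between the libraries therefore has no replicate check, and no test was made. All intervals in brackets are 95% intervals for counting error only. Values are given for the C435A tumour library first and the WT tumour library second, and a log2 ratio below 0 is lower in the C435A tumour library.

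C1q is the recognition part of the classical complement pathway, and tissue macrophages are among its main sources. In the lung, interstitial macrophages lie in the tissue between the air spaces, often express MHC class II and present antigen, while alveolar macrophages patrol the air spaces. Macrophages in tumours can also take on a lipid-handling state marked by Spp1, Gpnmb, Fabp5 and Trem2, and Arg1, which breaks down arginine, marks another set of tumour macrophages.

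The C435A tumour library held 64 members with 478090 UMIs in all and a median of 6625.5 per barcode. The WT tumour library held 113 members with 1257575 UMIs and a median of 9278. C1q UMIs per member ran from 5 to 334 (median 38.5) and from 5 to 687 (median 72). Just outside the rule lay 4 and 2 barcodes with 4 C1q UMIs, and just inside it 2 and 2 with 5. A single UMI of Arg1 kept out 3 and 7 barcodes. Of 24 barcode sequences that both libraries share, 1 was a member in either, and 0 in both. A doublet caller marked 1 and 10 members.

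Most members had transcripts of macrophage genes. Csf1r, the receptor for the macrophage growth factor CSF1, had UMIs in 57 of 64 and 99 of 113 members, and the lipid carrier Apoe in 52 and 104. With each barcode thinned to 1000 UMIs, Csf1r was seen in 50.8% and 28.6% of members, against 0.918% and 1.21% of B cells. Classical monocytes were taken, among other limits, with under 5 C1q UMIs, at least 2 of Ly6c2 and at least 2 of Csf1r, Ccr2 and F13a1 together. They had Csf1r in 40.3% and 37.8%, which this choice partly sets. Csf1r is therefore not used to tell members from them. Thinned Ms4a7 did differ, at 34.9% and 31.2% of members and 1.39% and 5.49% of monocytes. Ms4a7, given as a marker of these cells, was seen in 38 and 75 members. Of the dendritic cell genes, Flt3, Xcr1 and Siglech had 0 UMIs in both libraries, and all 10 markers together had 48 and 52, with over 2 in 5 and 3 members. The 12 alveolar macrophage markers had 306 and 1580 UMIs together, with over 2 in 24 and 66 members. Among those outside the rule Siglecf had 2 and 1 UMIs and Ear1 1 and 2, while the fatty acid carrier Fabp4 had 111 and 490 and the chitinase-like Chil3 26 and 276. The 6 of them with enough UMIs had a median ratio of -1.25 (log2, C435A over WT), and their part in the results below was not tested.

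The interstitial part of the name was less secure. Of 20 genes of the Lyve1-type resident macrophage, some were rare: Lyve1 had UMIs in 1 and 5 members, Folr2 in 5 and 9 and Cd163 in 5 and 3, and Cd209f, Cd209d and Cd209g had 0. Others were common, with the mannose receptor Mrc1 in 27 and 54 members, Selenop in 45 and 84 and Wfdc17 in 50 and 104. The list as a whole had 1521 and 5324 UMIs, with over 2 in 61 and 109 members. Position in the tissue was not measured. Some members also lacked MHC class II and Ms4a7, as described below, so the set is called here by its rule and not as 1 cell type.

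Members with over 2 UMIs of markers of another cell type (T, B or NK cells, neutrophils or melanoma cells, each list on its own) were common, and 48 and 75 members were left without them. Dendritic cell markers were not among these lists. The 10 neutrophil markers had 68 and 3893 UMIs, and 1 barcode of the WT tumour library, which the doublet caller marked, held 2516 of them beside 93 C1q UMIs. Neutrophil markers over 2 UMIs were found in 11 and 25 members. The 8 NK cell markers had 86 and 178 UMIs, of which 1 barcode in each library held 69.8% and 64.6%. The 9 T cell markers had 54 and 99 UMIs, and the 7 melanoma markers 11 and 119.

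Members were a smaller share of the C435A tumour library. They were 0.621% [0.478, 0.792] of its 10313 kept barcodes and 1.12% [0.927, 1.35] of the 10051 of the WT tumour library. The C435A share minus the WT share was -0.504 percentage points [-0.766, -0.249]. Of all C1q-positive barcodes that met the other criteria, members were 84.2% [74.0, 91.6] and 71.1% [63.4, 78.0], since Arg1-positive barcodes numbered 12 and 46. Against this denominator the difference was 13.1 points [1.38, 23.1] in the other direction. Shares are of sorted cells, so a change in any other cell type moves them.

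Members were split at the median over both libraries of the share of their UMIs that came from Spp1, Gpnmb and Fabp5, 3 genes of the lipid-handling state. The median was 0.217%, and the split was chosen after the data were seen. Since these genes differed between the libraries, the numbers on each side describe that difference and are no separate result. Below the median there were 44 members in each library, 0.427% [0.310, 0.572] and 0.438% [0.318, 0.587] of kept barcodes, a difference of -0.0111 points [-0.196, 0.172]. At or above it there were 20 and 69, 0.194% [0.118, 0.299] and 0.686% [0.535, 0.868], a difference of -0.493 points [-0.686, -0.314]. Below the median a difference in share was not detectable at this depth, and above it the 2 intervals did not overlap.

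**Figure D1:**
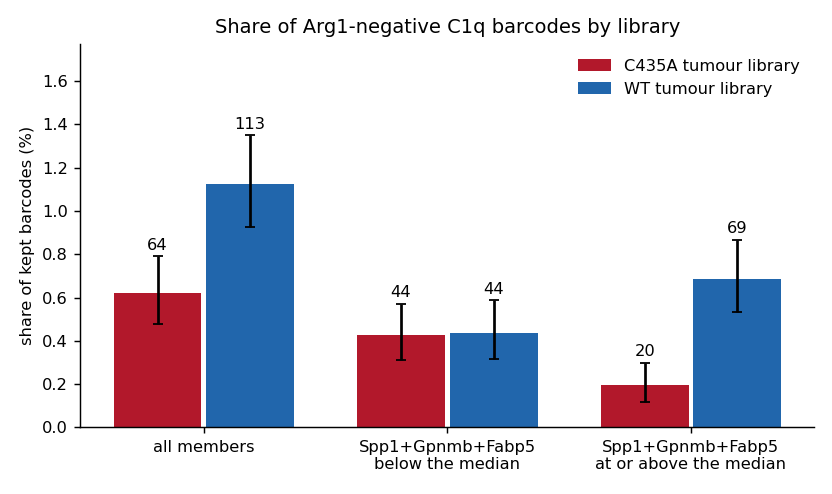
Share of kept barcodes (y axis, %) that were members, for all members and for those below or at or above the median share of Spp1, Gpnmb and Fabp5 UMIs. Bars are the C435A (red) and WT (blue) tumour libraries, error bars are exact 95% binomial intervals for counting error and numbers above them are barcodes; the bars are level at 44 and 44 members below the median and apart at 20 and 69 above it.

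MHC class II was higher in members of the C435A tumour library. H2-Aa, an alpha chain of the class II molecule, stood at 8538 and 3954 CPM (UMIs of the gene over all UMIs of the members, scaled as CPM; log2 ratio 1.11 [1.05, 1.17]). The beta chains H2-Eb1 (7327 and 3336 CPM) and H2-Ab1 (6547 and 3357 CPM) were higher by 1.14 [1.07, 1.20] and 0.96 [0.90, 1.03]. Cd74, the invariant chain that guides class II to its peptides, stood at 0.90 [0.85, 0.94]. H2-DMb1, part of the molecule that loads peptides, had 579 and 259 CPM (1.16 [0.92, 1.40]). Without members that held over 2 UMIs of markers of another cell type (48 and 75 left), ratios were smaller. H2-Aa was at 0.82 [0.75, 0.89], H2-Eb1 at 0.80 [0.73, 0.88], H2-Ab1 at 0.65 [0.57, 0.72] and Cd74 at 0.63 [0.58, 0.69]. The part of those cells in the class II difference was not tested.

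The genes of the class II list did not all move. Of its 15 measured genes (20 or more UMIs over both libraries), 7 were higher by over 1.5-fold and 1 lower, with a median log2 ratio of 0.55. Over all 7609 genes measured, 28.6% passed 1.5-fold in either direction, 15.2% of them upward and 13.4% downward as shares of all genes, and the median was 0.06. Ciita, the transcription factor that switches class II genes on, stood at 0.16 [-0.53, 0.82], and the lysosomal processing enzymes Ctss, Ifi30 and Lgmn at -0.26, -0.05 and -0.41. The 7 higher genes were the class II chains named above, Cd74 and the 3 H2-DM genes. The gene lower by that size was H2-Eb2, with 2 and 18 UMIs (-1.77 [-4.93, 0.29]).

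Class II also differed from barcode to barcode. The summed level of H2-Aa, H2-Ab1, H2-Eb1 and Cd74 had medians of 39482 and 6650.4 CPM per barcode. Its 10th and 90th percentiles were 774 and 72905 CPM, and 316 and 57611 CPM, so the ranges overlapped widely. The top barcode held 5.26% and 5.97% of these UMIs. Without the 5 highest barcodes of each library the log2 ratio of the sum was 1.16 [1.13, 1.19], against 1.00 [0.97, 1.03] with them. At 1000 UMIs per barcode, H2-Aa was seen in 85.7% [74.6, 93.3] and 58.9% [49.2, 68.1] of members, and in 5.29% and 6.27% of T cells, which do not make it. Unthinned it was seen in 58 of 64 and 95 of 113.

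The promoters of class II genes carry a conserved set of elements, of which the Y box is 1. Its core GATTGG, searched on both strands in the 300 bases around each RefSeq start site of GRCm38.p6 (250 before, 50 after), was found in 8 of the 12 class II genes in the table and in 18.2% of all 27025 gene symbols. A stretch of 80 bases within the 250 before the start site is shown for 3 of the genes that were higher, with the core in capitals, 5′ to 3′ on the gene's strand. H2-Aa lies at chr17:34287824-34287903 (minus strand), H2-Eb1 at chr17:34305787-34305866 (plus strand), with a second copy read on the other strand as CCAATC, and H2-DMb1 at chr17:34153109-34153188 (plus strand).
H2-Aa: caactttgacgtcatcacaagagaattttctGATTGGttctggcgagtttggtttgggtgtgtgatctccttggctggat
H2-Eb1: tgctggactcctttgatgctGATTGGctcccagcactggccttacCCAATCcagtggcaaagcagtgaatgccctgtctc
H2-DMb1: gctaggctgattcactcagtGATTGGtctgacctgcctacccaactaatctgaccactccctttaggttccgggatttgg
A match is a description of the sequence and does not show binding.

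Genes of the lipid-associated macrophage state were lower in the C435A tumour library. Of 20 measured genes, 0 were higher and 11 lower by over 1.5-fold, against 15.2% and 13.4% of all genes, with a median of -0.62. Spp1, which encodes the secreted matrix protein osteopontin, stood at 3829.8 and 8864 CPM (-1.21 [-1.28, -1.14]). The fatty acid carrier Fabp5 had 2437 and 6850.5 CPM (-1.49 [-1.58, -1.40]), the lysosomal glycoprotein Gpnmb 1040 and 2172 CPM (-1.06 [-1.20, -0.92]) and the matrix protease Mmp12 602 and 1439 CPM (-1.26 [-1.44, -1.08]). Trem2, the lipid receptor that gives this state its other name, stood at -0.62 [-0.84, -0.41], and the lipid-releasing enzyme Lpl at -0.04 [-0.22, 0.13].

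These transcripts came from few barcodes of the C435A tumour library. Spp1 had UMIs in 21 of 64 and 88 of 113 members, and the top barcode held 51.9% and 11.7% of its UMIs. Without the top barcode of each library the Spp1 ratio was -2.09. At 1000 UMIs per barcode Spp1 was seen in 17.5% [9.05, 29.1] and 51.8% [42.1, 61.3] of members. It was also seen in 1.88% and 9.56% of thinned B cells, which do not make it and had median depths of 2316.5 and 2027 UMIs. The part of free RNA in the difference between members was not tested. Per barcode, Spp1, Gpnmb and Fabp5 together had medians of 173 and 4317 CPM. Without members that held over 2 UMIs of markers of another cell type (48 and 75 left), the ratio was smaller, -0.46 [-0.56, -0.36] for Spp1 and -0.30 for the list median. The part of those cells in the difference was not tested.

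Lysosomal genes followed the same direction. Of 29 measured, 1 was higher and 13 lower, against 15.2% and 13.4% of all genes, with a median of -0.54. The protease Ctsd was lower (3840.3 and 9244 CPM, -1.27 [-1.34, -1.20]), as were Ctsb (3627 and 7250.5 CPM), the growth factor precursor Grn (-0.91 [-1.07, -0.75]) and the scavenger protein Cd68 (-0.66 [-0.82, -0.50]). Cst3, an inhibitor of such proteases, was the gene that was higher (0.66 [0.57, 0.76]). The list median was -0.27 without barcodes holding markers of other cells (6 of 29 lower), -0.21 below the lipid split (7 lower) and -0.17 above it (4 lower). Of all genes, 14.8%, 13.7% and 18.8% were lower by over 1.5-fold in these settings, so the count above the split does not exceed that share.

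Class II and the lipid genes were weakly and negatively related across members. Class II was high and Spp1, Gpnmb and Fabp5 low in 35 of 64 members of the C435A tumour library (54.7%) and in 26 of 113 of the WT tumour library (23.01%). The reverse, class II low and the lipid genes high, was found in 10 (15.6%) and 51 (45.1%). Both were high in 10 and 18 members and both low in 9 and 18. High means at or above the median over all members, 20077 CPM for class II. Across barcodes the 2 sums had a Pearson correlation of -0.27 and -0.18 and a Spearman correlation of -0.41 and -0.27 (log2 of CPM + 100, 64 and 113 barcodes). These barcodes share a library and a total that both sums are divided by.

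**Figure D2:**
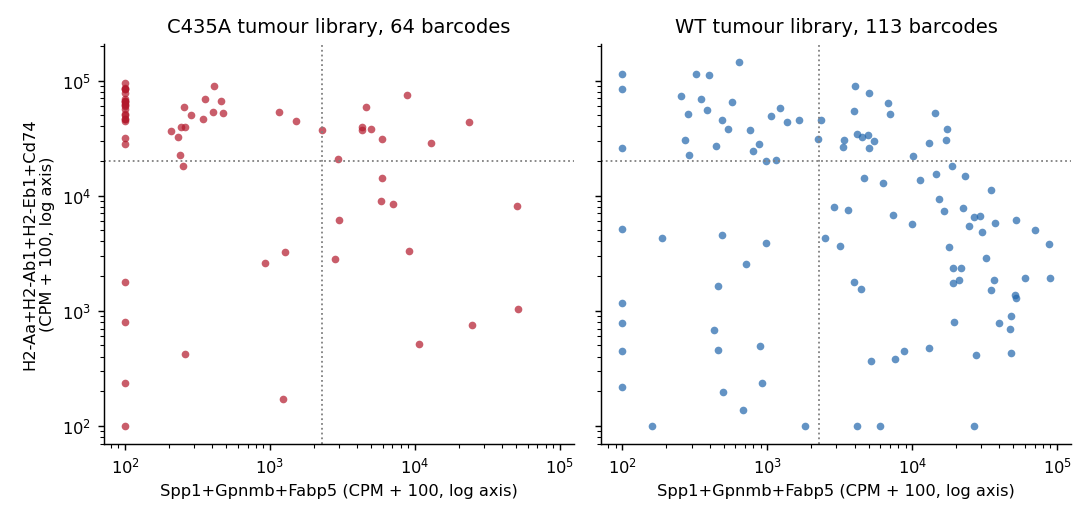
Each point is 1 member, with Spp1, Gpnmb and Fabp5 summed on the x axis and H2-Aa, H2-Ab1, H2-Eb1 and Cd74 summed on the y axis (CPM + 100, log axes), for the C435A (left) and WT (right) tumour libraries. Dotted lines are medians over both libraries; the upper left part holds 35 and 26 members and the lower right part 10 and 51.

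Both Cx3cr1 and Ccr2 were higher in the C435A tumour library over all members. Cx3cr1, the fractalkine receptor of resident macrophages and patrolling monocytes, had 433 and 142 CPM (1.60 [1.31, 1.90]) and correlated with class II across barcodes (Pearson 0.35 and 0.37). It was highest in members with high class II and low lipid genes, at 681 and 412 CPM, and lowest in those of the reverse pattern, at 62.5 and 47.2 CPM. Ccr2, the receptor by which monocytes enter tissue, had 406 and 267 CPM (0.60 [0.34, 0.86]) and was at 558 and 971 CPM in the first of these groups and 62.5 and 48.8 CPM in the second. Its correlation with the lipid genes was -0.06 and -0.43 (Pearson) and 0.05 and -0.47 (Spearman). At 1000 UMIs per barcode Cx3cr1 was seen in 28.6% and 10.7% of members and in 0.743% and 0.696% of B cells. It was also seen in 9.50% and 3.12% of thinned T cells and 27.8% and 23.8% of classical monocytes, so a higher share in the C435A tumour library was not particular to members.

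Class II and Cx3cr1 differed in the same direction on each side of the split. H2-Aa was at 10132 and 5588 CPM in members low in Spp1, Gpnmb and Fabp5 (0.86 [0.78, 0.94]) and at 5934 and 3145 CPM in those high in them (0.92 [0.81, 1.02]). Cx3cr1 was at 1.00 [0.66, 1.35] and 1.34 [0.65, 2.01]. Spp1 within the high side was at -0.40 [-0.47, -0.33]. The lipid list had medians of -0.10 below and -0.23 above the split, which the split itself narrows, since its 3 genes are in the list. Ccr2 went in opposite directions, -0.30 [-0.61, 0.00] below and 1.41 [0.88, 1.93] above, and the difference was not tested.

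Type I interferon response genes were lower in members of the C435A tumour library. Of 50 measured, 0 were higher and 28 lower by over 1.5-fold, against 15.2% and 13.4% of all genes, with a median of -0.67. Rsad2, an antiviral enzyme, had 10 and 215 UMIs (-3.03 [-4.11, -2.12]). The RNA-binding antiviral protein Ifit1 had 6 and 129 (-3.03 [-4.50, -1.87]), the nucleotide kinase Cmpk2 2 and 80 (-3.93 [-7.00, -2.03]) and Usp18, which limits interferon signalling, 1 and 59 (-4.49 [-9.81, -1.95]). The ubiquitin-like Isg15 had 35 and 187 (-1.02 [-1.59, -0.50]). Ly6e (0.42 [0.25, 0.59]) and Irf9 (0.52 [-0.16, 1.17]) lay on the other side of 0, and Irf7 itself stood at -0.57 [-1.34, 0.14] with 21 and 82 UMIs.

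A handful of barcodes carried most of these transcripts. Summed over Ifit1, Ifit2, Ifit3, Rsad2, Cmpk2, Usp18, Isg15 and Oasl1 there were 69 and 897 UMIs, of which 1 barcode of the WT tumour library held 385. At least 10 of these UMIs were found in 2 of 64 members (3.12% [0.381, 10.8]) and 9 of 113 (7.96% [3.71, 14.6]), and those 9 held 85.7% of the total. Without the highest barcode of each library the ratio of the sum moved from -2.31 to -1.84 [-2.27, -1.43], and without the 5 highest to -1.24 [-1.86, -0.68]. The list was lower on both sides of the lipid split, with medians of -0.51 (19 of 39 lower by over 1.5-fold) below it and -1.11 (38 of 47) above it, where 13.7% and 18.8% of all genes were lower by that size.

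The interferon-stimulated response element, a site for complexes that hold IRF9 or other IRF proteins, has a core of GAAA, 2 bases of any kind and GAAA again. On either strand of the same promoter windows it was found in 25 of 43 genes of this list with a promoter in the table and in 3.99% of all gene symbols. It is shown in capitals for 2 of the genes with the lowest ratios, both read here on the other strand. Ifit1 lies at chr19:34640765-34640844 (plus strand) with 2 copies, and Rsad2 at chr12:26456513-26456592 (minus strand) with 1.
Ifit1: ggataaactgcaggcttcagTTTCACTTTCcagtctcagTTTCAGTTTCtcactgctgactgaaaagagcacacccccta
Rsad2: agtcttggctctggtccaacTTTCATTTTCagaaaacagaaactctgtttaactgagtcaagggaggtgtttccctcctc

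The interferon gamma list gave a mixed picture. Of 21 measured genes 2 were higher and 6 lower, against 15.2% and 13.4% of all genes, with a median of -0.24. The T cell attractants Cxcl9 (33 and 190 UMIs, -1.13 [-1.71, -0.59]) and Cxcl10 (19 and 176, -1.82 [-2.58, -1.13]) were lower, with UMIs in 5 and 11 and in 8 and 18 members. The GTPase Gbp2 was higher (64 and 64 UMIs, 1.40 [0.87, 1.92]). Cxcl9 below the lipid split stood at -0.02 [-0.73, 0.68] and above it at -3.98 [-7.04, -2.10], and the difference was not tested.

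Genes of cell division were higher in the C435A tumour library. Of 23 measured, 18 were higher and 0 lower, against 15.2% and 13.4% of all genes, with a median of 1.45. Mki67, a marker of cycling cells, had 63 and 40 UMIs (132 and 31.8 CPM, 2.05 [1.46, 2.66]) and the DNA-untangling enzyme Top2a 73 and 49 (1.97 [1.43, 2.52]). The replication genes Mcm3, Mcm5, Mcm6 and Pcna stood at 0.31, 0.17, -0.34 and 0.10. Mki67, Top2a, Birc5, Ube2c and Pclaf together reached 10 UMIs in 7 of 64 members (10.9% [4.51, 21.2]) and in 4 of 113 (3.54% [0.97, 8.82]), and those barcodes held 93.1% and 82.1% of the UMIs. The intervals of the 2 shares overlap. Thinned T cells had Mki67 UMIs in 13.1% and 1.89%, and B cells in 4.77% and 3.55%. C1q UMIs of those 7 members of the C435A tumour library were 334, 201, 144, 16, 9, 7 and 6, and those with 16, 9, 7 and 6 had 0 UMIs of Apoe. In the WT tumour library a member with 82 UMIs of the division genes held 190 of Prg4, Saa3, Alox15 and Cd5l, described below, and 1 of class II. Another with 41 held 127 and 4. The dividing members were thus unlike each other, and the part of each kind in the ratio was not tested. In members with at least 10 C1q UMIs the list median was 1.00 (15 of 22 higher), and after thinning it was 0.63 (2 of 4 higher), against 14.9% and 15.0% of all genes. The list median was 0.85 below the lipid split and 0.33 above it. Without barcodes that held over 2 UMIs of markers of another cell type it was 1.39, and without those holding neutrophil markers 2.36.

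**Figure D3:**
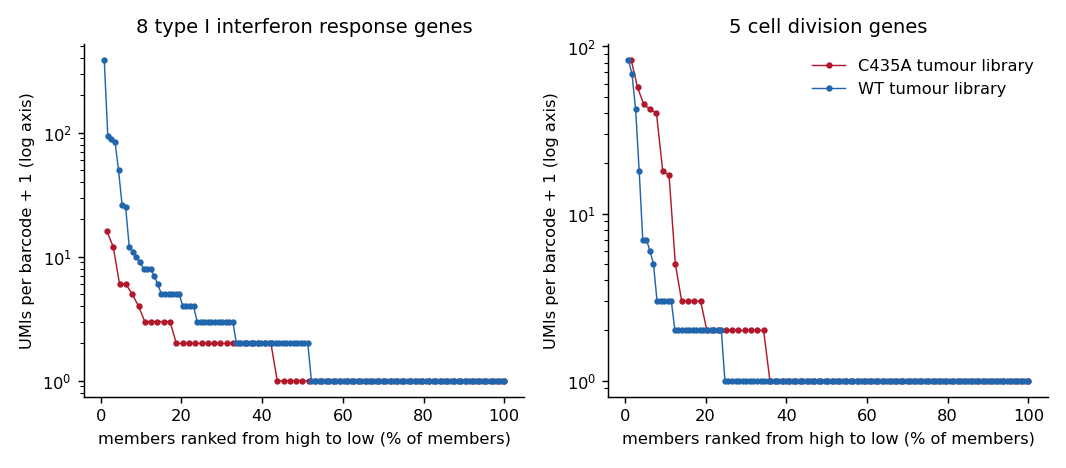
Members of the C435A (red) and WT (blue) tumour libraries ranked by UMIs of 8 type I interferon response genes (left) and 5 cell division genes (right); the x axis is the rank as a percentage of members and the y axis UMIs per barcode + 1 on a log axis. The interferon genes reached 385 UMIs in 1 barcode of the WT tumour library, and the division genes fell to a few UMIs after the first 7 and 4 members.

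Of 14 measured complement genes, 0 were higher and 2 lower, against 15.2% and 13.4% of all genes, with a median of -0.22. The list holds the C1q genes of the rule, so its median is a description. It was 0.20 after thinning (2 of 11 higher, 0 lower, against 15.0% and 17.9% of all genes). Below the lipid split it was -0.36 (1 of 14 higher, 6 lower, against 16.1% and 13.7% of all genes). The 3 chains of C1q, which lie side by side on chromosome 4 and are in the rule, stood at -0.32 (C1qa), -0.17 (C1qb) and -0.22 (C1qc). The 2 lower genes were Cfb (4 and 32 UMIs) and Vsig4, a complement receptor of resident macrophages. Vsig4 had 0 and 42 UMIs, 36 of them in 1 barcode. The anaphylatoxin receptors C3ar1 (-0.24 [-0.51, 0.02]) and C5ar1 (-0.00 [-0.42, 0.40]) had intervals that held 0.

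Of 18 MHC class I genes 5 were higher and 0 lower, against 15.2% and 13.4% of all genes, with a median of 0.31. Above the lipid split the median was -0.03, with 2 of 15 higher and 1 lower, against 13.7% and 18.8% of all genes. The classical H2-K1 had 3188 and 2219 CPM (0.52 [0.43, 0.61]), while H2-D1 stood at 0.09 and its partner B2m at -0.05. The largest ratios were in H2-Q7 (1.43 [1.12, 1.74]) and H2-Q6 (2.86 [1.92, 3.90]), near-identical genes whose reads may be split between them.

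Genes of interstitial macrophage identity stood at a median of 0.25 over 19, with 4 higher and 2 lower, against 15.2% and 13.4% of all genes. Tmem176b, a channel of antigen-presenting cells, had 573 and 264 CPM (1.12 [0.88, 1.35]) and its neighbour Tmem176a stood at 1.00 [0.73, 1.27]. Csf1r (0.50 [0.25, 0.74]) and Ms4a7 (-0.09 [-0.30, 0.13]) moved less. All 8 nonclassical monocyte markers were measured, with 6 higher, 0 lower and a median of 0.83. Of these Spn, the surface sialoprotein CD43, had 45 and 20 UMIs (2.57 [1.78, 3.40]), in 16 and 13 members, but it is also seen in 22.05% and 15.6% of thinned T cells. Pou2f2 had 113 and 103 UMIs (1.53 [1.13, 1.93]).

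Among secreted factors, the monocyte attractants Ccl2 (-0.68 [-0.96, -0.41]), Ccl7 (-1.09 [-1.44, -0.75]) and Ccl12 (-1.22 [-1.86, -0.64]) were lower. Of 19 measured chemokines 4 were higher and 7 lower, against 15.2% and 13.4% of all genes, with a median of -0.28. Ccl8, at 48 and 42 UMIs, was among the higher ones, but 1 barcode of the C435A tumour library held 95.8% of its UMIs. The growth factor Igf1 (65 and 351 UMIs, -1.04 [-1.44, -0.65]) and Il1rn, which blocks interleukin 1 (30 and 182, -1.21 [-1.81, -0.64]), were lower. Of the checkpoint ligands, Cd274, which encodes PD-L1, had 20 and 59 UMIs (-0.17 [-0.98, 0.59]), and a difference was not detectable at this depth.

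The 12 genes with the highest ratios and the 12 with the lowest, taken by the interval bound nearest 0, included several from 1 or 2 barcodes. Ccl22, an attractant of regulatory T cells, had 63 and 6 UMIs, the 63 all in 1 member (4.79 [3.59, 6.29]). Retnla, a product of alternatively activated macrophages, had 266 and 42 UMIs (4.06 [3.58, 4.56]), with 77.4% from 1 barcode. Ccl17 had 90.4% of its 52 UMIs and Cd209a 51.4% of its 35 in 1 barcode of the C435A tumour library. H2-M2, a nonclassical class I gene, had 58 and 20 UMIs in 9 and 6 members (2.93 [2.18, 3.74]).

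Other genes of that ranking came from many members. Cd72, an inhibitory receptor also found on B cells, had 128 and 64 UMIs in 23 and 30 members (2.40 [1.95, 2.85]). Slamf9, a receptor of the SLAM family, was in 31 and 34 (1.83 [1.34, 2.32]), the transcriptional corepressor Cbfa2t3 in 28 and 28 (1.98 [1.46, 2.52]) and Hpgd, which breaks down prostaglandins, in 21 and 14 (2.29). Without the top barcode of each library these 4 were at 2.26, 1.78, 2.13 and 2.20. Mki67 and Top2a, given above, and Spn completed the higher genes.

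The lower genes of the ranking were led by neutrophil transcripts. S100a9 (14 and 1687 UMIs), S100a8 (20 and 1257), Camp (2 and 425), Ngp (0 and 203), Retnlg (3 and 154) and Lcn2 (3 and 93) had 51.9% to 97.6% of their UMIs in their top barcode of the WT tumour library. Without barcodes holding markers of other cells Lcn2 was at 0.64, and Ngp was at 0.55 without barcodes holding neutrophil markers. Among members at or above the lipid split Camp, Ngp and Marco were at 0.63, 0.80 and 0.21. A count of 0 enters a ratio as 3 UMIs, so the positive Ngp ratios do not show a higher level in the C435A tumour library, where Ngp had 0 UMIs. The positive ratios of Lcn2, Camp and Marco rest on few UMIs. Mfge8, which bridges dying cells to phagocytes, had 41 and 956 UMIs in 7 and 30 members (-3.15 [-3.64, -2.70]), with 70.7% and 18.9% from the top barcode. Without members holding markers of other cells it stood at -1.23 [-1.82, -0.67]. In the WT tumour library 946 of its UMIs lay in members high in the lipid genes. The scavenger receptor Marco had 6 and 214 UMIs, 70.6% of the latter from 1 barcode, and the lysozyme Lyz1 12 and 227. Rsad2, Cmpk2 and Ifit1 completed the lower genes.

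**Figure D4:**
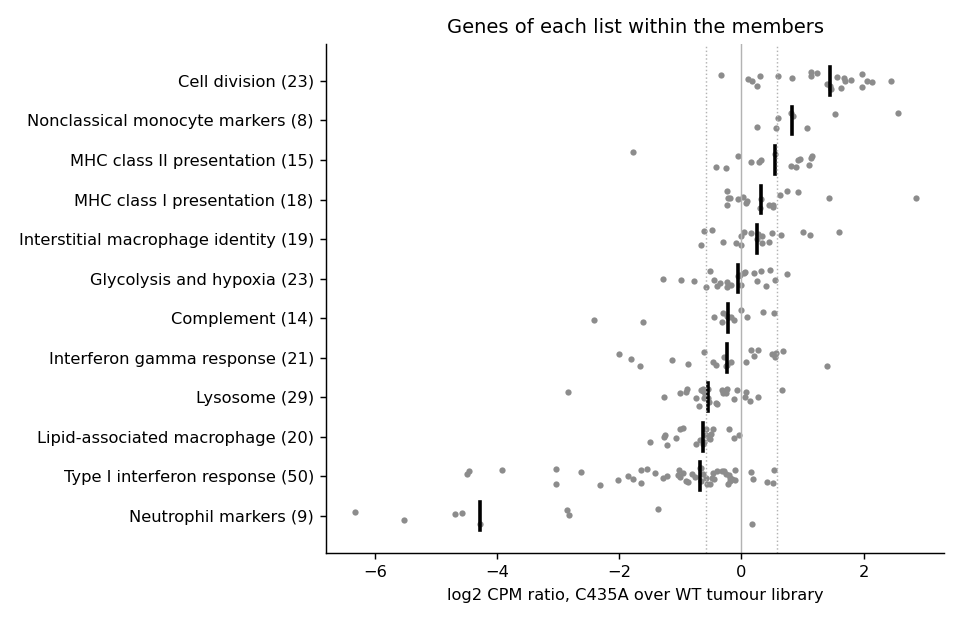
Each point is 1 gene, with the log2 CPM ratio of the C435A over the WT tumour library within members on the x axis, for 12 gene lists (number of measured genes in parentheses). Black bars are list medians and dotted lines mark 1.5-fold; cell division genes lie mostly to the right (median 1.45) and type I interferon, lipid and lysosome genes to the left (-0.67, -0.62 and -0.54), and the neutrophil markers rest largely on 1 barcode.

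A group of members mostly had little class II or Ms4a7. Prg4, Saa3, Alox15 and Cd5l, known from macrophages of the serous cavities and picked after their values were seen, reached 5 UMIs in 5 of 64 and 13 of 113 members, which held 98.96% and 99.2% of their UMIs. In these members class II had medians of 135 and 578 CPM per barcode, against 44434 and 10100 in the rest, and Ms4a7 a median of 0 in both. The 13 were mixed. Of them, 1 with 7 UMIs of the 4 genes had class II at 22400 CPM, 1 with 25 had Ms4a7 at 600 CPM, and 2 were high in the lipid genes. Their C1q level was 4934 and 11494 CPM, against 8433 and 9347 in the rest. At least 2 UMIs of Lyve1, Folr2, Cd163, Timd4 and Cd209f were found in 3 of these 5 and 8 of these 13.

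Arg1-positive C1q barcodes were the nearest set to compare with. They numbered 12 and 46, with median depths of 15970 and 10239 UMIs, and differ from members by Arg1 in the rule. The level of the class II chains was higher in members in both libraries. H2-Ab1 stood at 6547 CPM in members and 2717 in Arg1-positive barcodes of the C435A tumour library (log2 ratio of members over Arg1-positive 1.27 [1.12, 1.42]), and at 3357 and 1522 CPM in the WT tumour library (1.14 [1.04, 1.24]). At 1000 UMIs per barcode H2-Ab1 was seen in 79.4% of members and 58.3% of Arg1-positive barcodes of the C435A tumour library, but in 55.4% and 60.9% in the WT tumour library, so no order is read from that share. H2-Eb1 was at 1.20 in both libraries and H2-Aa at 1.34 and 0.91. Among Arg1-positive barcodes the top barcode held 34.5% and 16.0% of H2-Ab1 UMIs, 42.0% and 17.1% of H2-Eb1 and 36.8% and 15.8% of H2-Aa. Ciita was at 2.26 [0.27, 5.37] and 2.73 [1.43, 4.40]. Of 12 measured class II genes, 8 and 7 were higher and 0 lower. Over all 4619 genes measured in both libraries, 37.5% of the C435A tumour library and 14.5% of the WT tumour library passed 1.5-fold in either direction, and 24.3% and 7.88% upward.

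The chemokine Ccl5 had the highest bound of all, at 508 and 55.2 CPM (3.20 [2.25, 4.35]) and 320 and 34.9 CPM (3.19 [2.58, 3.89]), with 44.0% and 37.1% of the members' UMIs from 1 barcode. In the C435A tumour library this barcode, of 9391 UMIs, was the member that the doublet caller marked. It also held 4 of the 5 UMIs of the NK cell marker Ncr1 in members of that library. Its part in the Ccl5 ratio was not tested. Ccr2 (1.40 and 1.25), the lipase Lpl (1.58 and 0.97), the protease Mmp19 (1.99 and 1.38), Tmem176b (1.26 and 2.73) and Pou2f2 (2.10 and 1.44) were also higher in members of both libraries. Slpi, an inhibitor of neutrophil proteases, stood at 2.91 and 1.20, with 66 UMIs in 8 members of the C435A tumour library, and was at -0.39 there after thinning. Lipid genes went both ways. Of 20, 4 were higher and 5 lower in the C435A tumour library and 2 and 1 in the other, with medians of 0.05 and 0.05. Of all genes, 24.3% were higher and 13.2% lower in the C435A tumour library and 7.88% and 6.60% in the other. Within the list Gpnmb was at 4.82 and 0.37, Spp1 was lower in members (-0.25 and -0.81) and Mmp12 higher (1.09 and 1.01).

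Genes of glycolysis and hypoxia were lower in members than in Arg1-positive barcodes. Of 22 measured, 19 and 20 were lower by over 1.5-fold and 0 and 1 higher, against 13.2% and 6.60% of all genes lower, with medians of -1.07 and -1.11. Vegfa, the growth factor of blood vessels, stood at 8.37 CPM in members and 98.1 in Arg1-positive barcodes of the C435A tumour library (-3.55 [-5.59, -1.92]), and at 14.3 and 77.7 CPM in the WT tumour library (-2.44 [-3.31, -1.64]). The lactate exporter Slc16a3 was at -1.90 and -1.77, the glucose transporter Slc2a1 at -1.97 and -1.31, Eno1 at -1.38 and -1.13 and Pgam1 at -1.22 and -0.99. Hk3, a hexokinase of myeloid cells, was the gene that was higher in the WT tumour library (0.87 [0.25, 1.53]), and was at -1.02 [-1.94, -0.07] in the other.

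The hypoxia response element, bound by HIF1 when oxygen is low, has the core ACGTG. On either strand of the same windows it was found in 17 of 24 genes of this list and in 21.8% of all gene symbols; a palindrome CACGTG counts on both strands. It is shown in capitals for 2 enzymes of the list, Pgam1 at chr19:41911737-41911816 and Ldha at chr7:46845639-46845718, both on the plus strand.
Pgam1: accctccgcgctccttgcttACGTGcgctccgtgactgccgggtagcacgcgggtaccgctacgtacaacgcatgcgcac
Ldha: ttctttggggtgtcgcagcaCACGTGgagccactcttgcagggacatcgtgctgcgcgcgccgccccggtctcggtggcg

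Other genes lower in members of both libraries encode matrix and secreted products. Thbs1, the matrix protein thrombospondin, stood at -1.59 and -2.34, fibronectin (Fn1) at -1.37 and -0.97, the crosslinking enzyme Tgm2 at -1.83 and -1.50 and Ltc4s, which makes leukotriene C4, at -1.62 and -1.18. The granule proteoglycan Srgn (-1.28 and -1.47), the chemokine Ccl6 (-1.12 and -0.98) and the ribonuclease Rnase4 (-1.55 and -1.16) completed the 10 lowest.

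**Figure D5:**
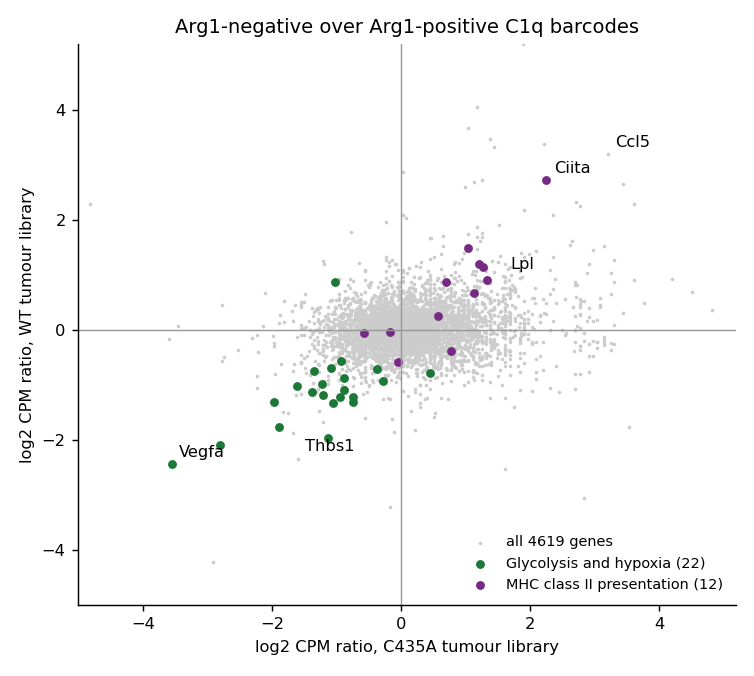
Each point is 1 gene, with the log2 CPM ratio of members over Arg1-positive C1q barcodes in the C435A (x axis) and WT (y axis) tumour libraries; grey points are all 4619 genes and 4 lie outside the axes. Most glycolysis and hypoxia genes (green, 22) lie below 0 in both libraries, and H2-Aa, H2-Ab1, H2-Eb1 and Ciita (purple, with the rest of the 12 class II genes) lie above 0 in both.

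Members also stood apart from classical monocytes, 144 and 164 barcodes. Of 6583 genes, 40.6% and 41.0% passed 1.5-fold in either direction, 20.4% and 17.7% upward and 20.2% and 23.3% downward. All 20 lipid-associated genes were higher in members, with medians of 3.19 and 3.85. Of 16 monocyte genes 14 were lower in each library, with medians of -3.27 and -3.11. The monocytes were chosen by Ly6c2 and by Csf1r, Ccr2 and F13a1, so this order is partly set by that choice and is a description. Plac8 stood at 226 and 334 CPM in members and at 5969 and 5889 in monocytes. Type I interferon genes were lower in members than in monocytes in both libraries, 37 and 25 of 49, with medians of -1.08 and -0.66.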

How the data were processed

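Live CD45-positive, 7-AAD-negative lung cells were sequenced as 1 library per tumour genotype. Per the labels, cells were captured on BD Rhapsody, yet the library kit is given as 10x Chromium. The labels also call the cells melanoma cells although the sort was for CD45. The deposited matrices hold raw UMI counts per gene and cell barcode, made by the authors with Cell Ranger 7.2.0 per the file headers, with GRCm38 per the submitters' processing notes. Counts of members were summed per library and divided by their total UMIs (CPM). Ratios carry exact conditional 95% intervals and shares exact Clopper-Pearson intervals, which cover counting error only. A count of 0 entered a ratio as 3 UMIs. Genes with 20 or more UMIs over both libraries were measured, and a fold over 1.5 was counted. Thinning drew 1000 UMIs per barcode, which left out 1 member in each library. Named genes had at least 50 UMIs over both libraries and 50 CPM in 1, and were the 12 highest and 12 lowest by the bound nearest 0 (10 and 10 against Arg1-positive barcodes, Arg1 left out). Scrublet in scanpy 1.11.5 scored doublets at 0.8% per 1000 barcodes, and called members were kept. Python 3.11.15, numpy 2.4.6 and scipy 1.17.1 were used, with R 4.3.3 for scaling by edgeR 4.0.16 (TMM) and DESeq2 1.42.0 (median ratio), both as alternatives only. The ratio script was tested on simulated data. The members and gene lists were chosen with earlier results of these data known. Promoter sequences are from RefSeq, GRCm38.p6.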

Additional observations from a re-analysis of the deposited data

Results flagged for a closer look

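The median of the complement list, which holds the C1q genes of the rule, had opposite signs in the 2 libraries when members were compared with Arg1-positive C1q barcodes, but lay near 0 in the WT tumour library. This median log2 ratio was -0.84 in the C435A tumour library, where 7 of 12 genes were lower by over 1.5-fold and 2 higher (13.2% and 24.3% of all genes), and 0.0589 in the WT tumour library, where 1 was lower, 2 higher and 9 within 1.5-fold. The difference was not tested. The neutrophil markers had medians of -5.27 and 2.33 in the same comparison, also in opposite directions, and that difference was not tested. Their summed level was 142 CPM in members and 3466 in the 12 Arg1-positive barcodes of the C435A tumour library, and 3096 and 578 CPM in the WT tumour library, where 1 member held 64.6% of the UMIs.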

How the results depend on the processing

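No paired analysis was possible because each group had 1 library, and no replicate could be left out. The 1159 higher and 1019 lower genes became 2225 and 1839 with no minimum (10597 genes), 511 and 455 with at least 50 UMIs (4731 genes) and 213 and 254 after thinning (1421 genes). The share past 1.5-fold moved from 28.6% to 38.4%, 20.4% and 32.9%. The lipid list median was -0.92 after thinning, -0.30 without barcodes holding markers of other cells, -1.001 without the top barcode of each gene, and -0.10 and -0.23 in members below and above the Spp1, Gpnmb and Fabp5 split. The cell division median was 0.33 above the split and 2.36 without barcodes holding neutrophil markers. The difference in share was 13.1 points of all C1q-positive barcodes and -0.0111 points below the split. Signs of ratios changed for Lcn2 without barcodes holding other markers (0.64) and for Camp (0.63), Ngp (0.80) and Marco (0.21) above the split. They also changed for Ngp without barcodes holding neutrophil markers (0.55) and for Slpi against Arg1-positive barcodes of the C435A tumour library after thinning (-0.39). Ngp had 0 UMIs in members of the C435A tumour library, and a count of 0 enters a ratio as 3 UMIs, so Ngp was not higher there. Lcn2, Camp and Marco had 3, 2 and 6 UMIs in those members, so their signs rest on few UMIs. The cause of the other changes was not tested. The lipid split, the neutrophil marker setting and the removal of top barcodes were chosen after seeing the data. TMM and median ratio scaling shifted all ratios by 0.06 (log2).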

Other observations

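Single members held most of the transcripts of several genes, picked here after their values were seen. In the C435A tumour library 1 member of 9276 UMIs held all 63 Ccl22 UMIs with 47 of Ccl17, 16 of Il12b, 9 of Cd40 and 87 of H2-Aa. It had 4 UMIs of C1qa, 12 of C1qb and 7 of C1qc, and 0 of Csf1r and Ccr7. Another, of 7102 UMIs, held 206 of Retnla and 6 of the clearance receptor gene Timd4, with 0 of H2-Aa. A member of 28822 UMIs held 950 of Spp1, 534 of the protease gene Ctsl and 29 of Mfge8.

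In the WT tumour library a member of 12121 UMIs held 36 of Vsig4 and 14 of Timd4, with 1 of H2-Aa and 0 of Ms4a7. A member of 13180 UMIs held 145 of Rsad2, 64 of Ifit1 and 49 of Cxcl10 beside 65 of C1qa and 18 of Ms4a7. Another, of 15549 UMIs, held 308 of H2-Aa, 9 of the dendritic cell marker Ccr7 and 84 of the 8 interferon response genes. It had 10 C1q UMIs and 0 of Csf1r and Ms4a7.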
